A study of Mus musculus with 16 samples.

Results

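The question here was whether castration changed gene expression in the left ventricle of the mouse heart differently in 2 strains that share every chromosome except the Y. C57.YA is a consomic strain, C57BL/6J with the Y chromosome of A/J. Males of each strain were castrated (CX) or sham operated before puberty and the hearts were taken at 12 weeks of age, which gave 4 groups of 4 mice: CX C57BL/6J, sham C57BL/6J, CX C57.YA and sham C57.YA. All 16 of 16 arrays of the series entered the comparison. For every probe the interaction was the change in C57BL/6J (CX minus sham) minus the change in C57.YA (CX minus sham), on the log2 scale, fitted with limma on quantile-normalized signal. Probes entered the test where some group had 2 or more of its 4 arrays with a detection p of 0.04 or lower, and were called at a Benjamini-Hochberg adjusted p under 0.1. Of the 25697 probes on the array, 12764 were tested, and 368 of them (2.88%) were called. Those 368 probes belonged to 322 genes, with 5 probes left unnamed.

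Castration removes the testes, the main source of androgen in the male, and left the Y chromosome in place in both strains. The Y chromosome carries few genes, and the remaining chromosomes of a consomic strain are those of its host. Among the genes that respond to hormones, feeding and time of day in the heart are those of the circadian clock. In the clock, ARNTL and CLOCK activate their targets through the E-box, PER and CRY proteins repress ARNTL and CLOCK, NR1D and ROR proteins compete at another element that controls Arntl, and the output factors DBP, TEF and NFIL3 share the D-box, where NFIL3 represses.

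Clock genes were among the largest interactions, and 4 of their promoters are shown here because each holds letters of an element named above. Each window runs from 250 bases before to 50 bases after the annotated start (300 bases, GRCm38.p6, sequence from RefSeq), read 5′ to 3′ on the gene's strand. Capitals mark the E-box CACGTG in Ciart (chr3:95882179-95882478, minus strand) and Tef (chr15:81802423-81802722, plus strand), the D-box TTATGTAA in Per3 (chr4:151044616-151044915, minus strand) and the half-site AGGTCA of the ROR and NR1D element in Nr1d2 (chr14:18239057-18239356, minus strand).
Ciart: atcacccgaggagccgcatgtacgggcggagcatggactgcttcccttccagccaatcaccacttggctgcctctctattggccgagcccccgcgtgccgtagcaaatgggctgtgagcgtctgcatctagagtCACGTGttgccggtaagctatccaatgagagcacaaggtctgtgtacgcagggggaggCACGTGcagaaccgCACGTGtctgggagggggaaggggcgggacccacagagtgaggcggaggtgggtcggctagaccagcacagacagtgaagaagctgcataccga
Tef: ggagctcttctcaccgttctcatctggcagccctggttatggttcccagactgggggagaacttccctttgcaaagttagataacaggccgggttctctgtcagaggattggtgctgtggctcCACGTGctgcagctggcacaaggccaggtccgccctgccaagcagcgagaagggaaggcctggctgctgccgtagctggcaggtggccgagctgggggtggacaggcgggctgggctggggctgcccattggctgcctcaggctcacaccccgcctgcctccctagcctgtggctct
Per3: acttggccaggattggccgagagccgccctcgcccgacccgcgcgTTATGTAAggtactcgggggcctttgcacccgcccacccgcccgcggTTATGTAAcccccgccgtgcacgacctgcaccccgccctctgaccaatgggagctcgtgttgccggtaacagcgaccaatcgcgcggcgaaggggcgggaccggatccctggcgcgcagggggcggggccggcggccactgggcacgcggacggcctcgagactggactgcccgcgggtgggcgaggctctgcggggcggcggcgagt
Nr1d2: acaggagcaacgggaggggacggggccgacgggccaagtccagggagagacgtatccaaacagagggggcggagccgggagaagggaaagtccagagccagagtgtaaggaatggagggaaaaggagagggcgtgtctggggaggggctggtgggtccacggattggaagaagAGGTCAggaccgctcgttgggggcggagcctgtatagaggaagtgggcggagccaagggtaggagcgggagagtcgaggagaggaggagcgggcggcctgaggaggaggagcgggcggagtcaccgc
Ciart held 3 E-boxes, with first bases at -116, -58 and -44 from the start, and Tef held 1 at -127. Per3 held 2 D-boxes, at -205 and -158, and Nr1d2 held 1 half-site at -77. Both strands were searched, and no match of these 3 motifs overlapped another in the windows shown. Over all 27025 promoters of this length, CACGTG was found in 7.24%, TTATGTAA in 0.955% and AGGTCA in 16%. Over the 255 called genes with a promoter in the table, the shares were 14.5%, 0.784% and 11%, against 10.2%, 0.541% and 12.1% of the 7213 tested genes. Of 12 called clock genes with a promoter, 2 held the E-box, 1 the D-box and 3 the half-site. These matches describe letters only.

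The samples were hybridised to 2 Illumina MouseRef-8 BeadChips, but the labels do not give the chip of each array, so no chip effect could be fitted. Between 11435 and 12212 probes were detected per array, and the median raw signal lay between 92.4 and 131.1. The mean correlation of an array with the rest of its group ranged from 0.9928 to 0.9962. The labels call the tissue left ventricle. Of 8 ventricular cardiomyocyte markers 7 were tested and 0 were called, and their summed signal ranged over 256200–274100 in CX C57BL/6J, 261600–277500 in sham C57BL/6J, 259500–282400 in CX C57.YA and 267000–281600 in sham C57.YA. The CX C57BL/6J arrays stood apart in genes of atrial muscle: the mean log2 signal of Myl4, Myl7, Sln and Mybphl was 9.88, 11.16, 9.54 and 9.23 on these arrays and 6.99 to 7.65 on the other 12. With that mean as a covariate 53 probes were called, of which 29 were among the 368. Since the 4 values of CX C57BL/6J lie outside the range of the other 12, the covariate and this group cannot be told apart. Within sham C57.YA, arrays 1 and 2 stood apart from arrays 3 and 4 in some genes, as for the slow myosin heavy chain Myh7, at 8.33 and 8.31 against 9.39 and 9.55. In fits chosen after seeing the data, 142 probes were called without arrays 1 and 2 and 1700 without arrays 3 and 4, of which 121 and 361 were among the 368. In whole-tissue RNA, a change in the number of cells of a type and a change in RNA per cell cannot be told apart.

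The interaction ran in both directions. The change with castration was higher in C57BL/6J for 177 probes (1.39% of those tested) and lower for 191 (1.5%). The sizes of the 368 lay between 0.30 and 3.37 on the log2 scale, with a median of 0.54 against 0.119 over all tested probes. The interaction exceeded 1.5-fold for 147 probes and 2-fold for 35, of which 19 were positive and 16 negative. Of the 368 probes, 321 were detected on all 16 arrays. The rest, which include those of Myl7, Arntl and Hamp, had signals near background on some arrays. Among 128 called genes with more than 1 tested probe, 116 had every probe on the same side of 0 and 24 had every probe called.

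Each called probe was assigned a form from its changes with castration within each strain, tested in the same fit. Castration changed 1124 probes (8.81%) in C57BL/6J, where 523 rose (4.1%) and 601 fell (4.71%), and 2510 (19.7%) in C57.YA, where 1219 rose (9.55%) and 1291 fell (10.1%). Of the 368 probes, 243 (219 genes) had passed the test in C57.YA only, with 132 that rose and 111 that fell there. In these 243 the median size of the change was 0.126 in C57BL/6J and 0.434 in C57.YA. Another 76 probes (68 genes) had passed in C57BL/6J only, with 42 that rose and 34 that fell, and median sizes of 0.383 in C57BL/6J and 0.143 in C57.YA. In 23 probes (21 genes) both strains changed in opposite directions, in 18 (14 genes) both changed in the same direction to different extents, and 8 probes (8 genes) passed in neither strain. A change that did not pass is not a change of 0: the smaller change had an unadjusted p under 0.05 in 55 of the 243 and 14 of the 76 probes. The changes in the 2 strains had opposite signs in 181 of the 243 and 63 of the 76. Over all tested probes the signs were the same in 60.3%. Calling probes by the difference between the 2 changes itself favours opposite signs, so these counts are partly fixed by the choice.

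**Figure D1:**
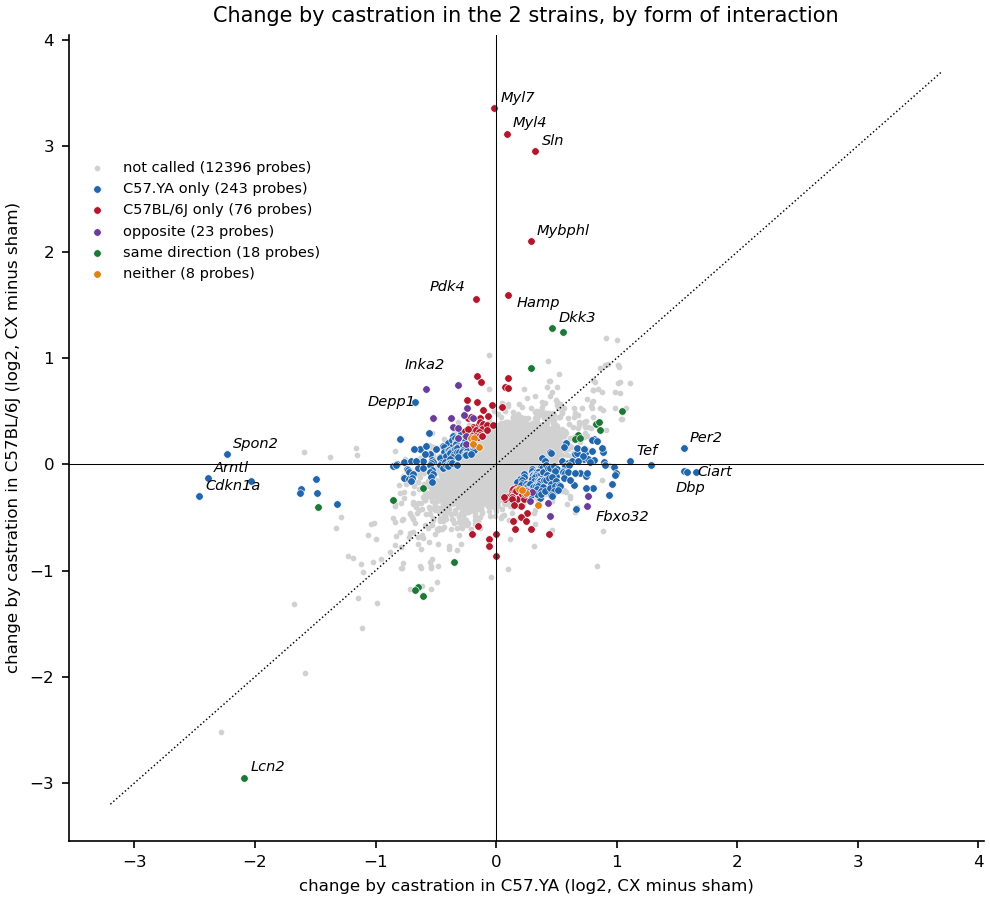
Change with castration (log2, CX minus sham) in C57BL/6J on the vertical axis against that in C57.YA on the horizontal axis, 1 point a probe, with the 368 called probes coloured by form and the line of equal change dotted. Most C57.YA only probes lie nearer the horizontal axis and the C57BL/6J only probes nearer the vertical axis. Cdkn1a lies at -2.46 and Arntl at -2.39 in C57.YA, and Myl7 at 3.35 in C57BL/6J.

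Of 9 tested genes of the core clock, 2 were called positive and 5 negative (77.8%). Over the 8849 genes tested, at 1 probe a gene, 3.07% were called, with 1.39% positive and 1.68% negative. In C57BL/6J 0 of these 9 genes rose with castration and 1 fell, beside 4.4% and 4.95% of all genes. In C57.YA 6 rose and 3 fell, beside 10% and 10.5%. Of 9 clock output genes and casein kinases, 1 was called positive and 5 negative (66.7%). In C57BL/6J 0 of these 9 passed, and in C57.YA 6 rose and 1 fell. Both clock lists were drawn up with earlier results of these data known, so that their high shares are not evidence of their own. For most of these genes the sham C57.YA arrays lay apart and the other 3 groups lay together, as the following values show. The paper states that all animals were killed at the same time of day, and asks for further mice killed at other times. With a single time of day, a shift in the timing of the clock and a change in its mean level cannot be told apart.

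Arntl, the partner of CLOCK, had log2 signals of 6.82, 6.90, 6.71 and 7.04 in CX C57BL/6J, 6.84, 7.22, 6.91 and 7.03 in sham C57BL/6J, 6.64, 6.73, 7.18 and 6.85 in CX C57.YA, and 9.26, 9.41, 9.24 and 9.06 in sham C57.YA. All 4 sham C57.YA arrays lay above every other array. Arntl was detected on 1 array of CX C57BL/6J, 2 of sham C57BL/6J, 1 of CX C57.YA and all 4 of sham C57.YA. The difference of CX from sham in the log2 signal of Arntl was -0.13 in C57BL/6J, while in C57.YA the gene fell by 2.39, which gave an interaction of 2.26 ± 0.16 (SE, limma adjusted p = 1.44e-07). Clock, the other activator, had 10.84, 10.64, 10.67 and 10.93 in CX C57BL/6J, 10.88, 10.91, 10.85 and 10.97 in sham C57BL/6J, 10.62, 10.63, 10.76 and 10.70 in CX C57.YA, and 11.44, 11.32, 11.38 and 11.36 in sham C57.YA. It was again highest on the 4 sham C57.YA arrays, with no overlap. Its interaction was 0.56 ± 0.10 (adjusted p = 4.82e-03), while a second, dimmer probe of Clock was not called, at -0.08. Nfil3, the repressor of the D-box, had 9.99, 10.05, 10.18 and 10.21 in CX C57BL/6J, 10.14, 9.94, 10.07 and 10.14 in sham C57BL/6J, 9.75, 9.95, 10.26 and 9.99 in CX C57.YA, and 10.73, 10.78, 10.55 and 10.33 in sham C57.YA. Its interaction was 0.64 ± 0.15 (adjusted p = 0.0327).

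Other repressors and outputs of the clock, unlike Nfil3, had the reverse order: Per2, Per3, Cry2, Nr1d2, Dbp, Tef and Ciart were lowest in sham C57.YA. Per2 had 11.12, 10.60, 10.95 and 10.79 in CX C57BL/6J, 10.79, 10.79, 10.73 and 10.55 in sham C57BL/6J, 10.92, 10.80, 10.68 and 10.79 in CX C57.YA, and 9.23, 8.78, 9.36 and 9.59 in sham C57.YA. It rose 2.94-fold with castration in C57.YA, and the interaction was -1.40 ± 0.19 (adjusted p = 4.10e-04). Per3, whose promoter holds the 2 D-boxes printed above, had 7.71, 7.74, 7.96 and 7.61 in CX C57BL/6J, 7.70, 7.62, 7.74 and 7.52 in sham C57BL/6J, 7.61, 7.52, 7.41 and 7.35 in CX C57.YA, and 6.87, 6.66, 6.63 and 6.79 in sham C57.YA. It was not above background on any sham C57.YA array, so that its level was at least 1.43-fold higher in CX C57.YA, and the interaction was -0.63 ± 0.12 (adjusted p = 9.15e-03). Such a bound sets the mean of the bright group against the lowest detected signal of the dim group's arrays. Cry2 had 8.81, 8.68, 8.72 and 8.72 in CX C57BL/6J, 8.94, 8.89, 8.76 and 8.81 in sham C57BL/6J, 8.77, 8.83, 8.63 and 8.71 in CX C57.YA, and 8.35, 8.31, 8.12 and 8.16 in sham C57.YA. Its interaction of -0.61 ± 0.10 (adjusted p = 2.59e-03) was small but its sham C57.YA arrays did not overlap the rest. Nr1d2, a repressor of Arntl, had 12.13, 11.76, 11.65 and 11.72 in CX C57BL/6J, 11.78, 11.89, 11.59 and 11.54 in sham C57BL/6J, 11.92, 11.93, 11.75 and 11.78 in CX C57.YA, and 11.09, 10.80, 10.88 and 11.08 in sham C57.YA. The interaction was -0.77 ± 0.15 (adjusted p = 9.15e-03).

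Dbp, the most abundant output factor of the D-box in many tissues, had 14.00, 14.08, 14.18 and 13.79 in CX C57BL/6J, 14.16, 13.93, 14.19 and 14.02 in sham C57BL/6J, 13.90, 13.90, 13.62 and 13.87 in CX C57.YA, and 12.42, 11.84, 12.26 and 12.52 in sham C57.YA. It rose 2.95-fold with castration in C57.YA, and the interaction was -1.63 ± 0.17 (adjusted p = 4.60e-05). Tef, its paralog, had 11.54, 11.53, 11.60 and 11.51 in CX C57BL/6J, 11.44, 11.56, 11.36 and 11.70 in sham C57BL/6J, 11.70, 11.44, 11.44 and 11.25 in CX C57.YA, and 10.50, 10.44, 10.21 and 10.24 in sham C57.YA. It rose 2.16-fold in C57.YA, with an interaction of -1.08 ± 0.13 (adjusted p = 1.52e-04), and a second probe stood at -0.31 and was not called. Ciart, a repressor of the ARNTL and CLOCK pair with 3 E-boxes in the window above, had 9.84, 10.11, 9.70 and 9.43 in CX C57BL/6J, 9.97, 9.75, 10.02 and 9.63 in sham C57BL/6J, 9.51, 9.28, 8.82 and 9.28 in CX C57.YA, and 7.55, 7.13, 7.59 and 8.28 in sham C57.YA. It rose 3.0-fold in C57.YA, and its interaction was -1.66 ± 0.27 (adjusted p = 2.75e-03). Ciart and Per3 also differed between the CX groups, and were higher in CX C57BL/6J than in CX C57.YA by 0.55 (adjusted p = 0.0591) and 0.28 (adjusted p = 0.0285).

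Usp2, a ubiquitin protease under clock control, and Nampt, the enzyme of NAD salvage, also had negative interactions, of -0.71 (adjusted p = 0.0129) and -0.87 (adjusted p = 0.0275). For Nampt a second, dimmer probe was not called, at -0.42. Rora, an activator of Arntl, was called at -0.52 (adjusted p = 0.0509) but lost the call when CX C57BL/6J array 2, sham C57BL/6J array 3 or sham C57.YA array 2 was left out. Unlike Ciart and Per3, Rora and Nampt were lower in CX C57BL/6J than in CX C57.YA, at -0.36 (adjusted p = 0.0138) and -0.45 (adjusted p = 0.0307). Their strain differences in sham hearts, 0.16 (adjusted p = 0.374) and 0.42 (adjusted p = 0.119), did not pass. Not every clock gene took part: Nr1d1, the paralog of Nr1d2, fell with castration in both strains, by 0.45 in C57BL/6J and 0.47 in C57.YA, with an interaction of 0.03 (adjusted p = 0.954). Per1 rose in C57.YA but its interaction of -0.95 did not pass (adjusted p = 0.127), and its sham C57.YA arrays fell apart into 9.19 and 9.18 on arrays 1 and 2 and 9.95 and 10.26 on arrays 3 and 4. Bhlhe40, Csnk1d and Csnk1e were tested and not called, at -0.01, 0.03 and -0.27. Without sham C57.YA arrays 1 and 2, a choice made after seeing the data, Nfil3 (adjusted p = 0.189) and Rora (adjusted p = 0.199) lost their calls and the other called clock genes named here held theirs. With the atrial mean as a covariate, Arntl (adjusted p = 3.79e-03), Clock (0.0704), Dbp (0.0437), Tef (0.0895) and Ciart (0.0437) were called, and Per2, Per3, Cry2, Nr1d2, Nfil3, Rora, Usp2 and Nampt were not.

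**Figure D2:**
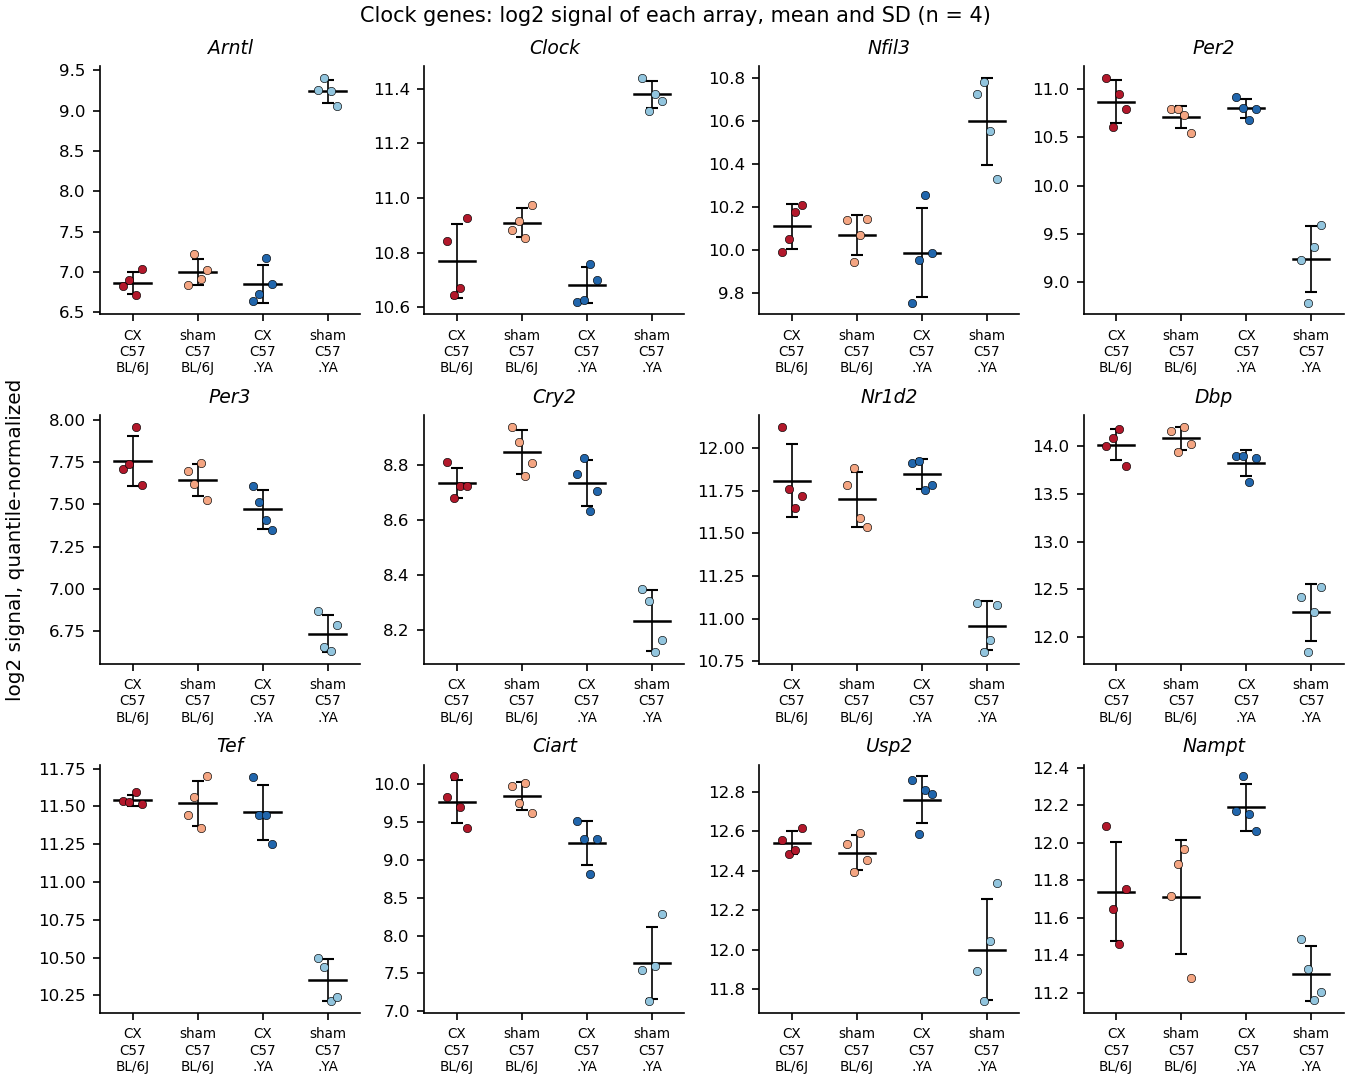
Log2 signal of 12 clock genes on each array (points), with the group mean and SD (n = 4), in CX and sham C57BL/6J and in CX and sham C57.YA. Sham C57.YA is the highest group for Arntl, Clock and Nfil3 and the lowest for the other 9 genes; for Arntl it lies at 9.06 to 9.41 against 6.64 to 7.22 elsewhere.

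Other genes of the C57.YA only form also had sham C57.YA away from the rest. Spon2, which encodes a secreted matrix protein, had 8.55, 8.38, 9.11 and 9.28 in CX C57BL/6J, 8.50, 8.69, 8.67 and 9.09 in sham C57BL/6J, 8.31, 8.59, 8.78 and 8.73 in CX C57.YA, and 10.54, 11.25, 10.91 and 10.64 in sham C57.YA. It fell 4.7-fold with castration in C57.YA, against a change of 0.09 in C57BL/6J, and its interaction was 2.33 ± 0.26 (adjusted p = 5.88e-05). Cdkn1a, the cell cycle inhibitor p21, had 8.61, 8.85, 8.55 and 8.65 in CX C57BL/6J, 9.14, 8.56, 9.04 and 9.12 in sham C57BL/6J, 7.99, 7.93, 8.82 and 8.15 in CX C57.YA, and 10.37, 10.79, 10.48 and 11.11 in sham C57.YA. It fell 5.52-fold in C57.YA, with an interaction of 2.16 ± 0.25 (adjusted p = 9.48e-05), and all 3 of its probes were called. The strains differed for Cdkn1a in CX hearts too, by 0.44 (C57BL/6J minus C57.YA, adjusted p = 0.0984), against -1.72 in sham hearts. Errfi1, an inhibitor of epidermal growth factor receptor signalling, had 10.30, 9.99, 9.98 and 10.25 in CX C57BL/6J, 10.26, 9.96, 10.02 and 10.33 in sham C57BL/6J, 10.18, 9.94, 10.08 and 10.03 in CX C57.YA, and 10.91, 10.96, 10.87 and 10.91 in sham C57.YA. Its interaction was 0.84 ± 0.13 (adjusted p = 1.66e-03).

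For a further set the means of the 2 C57.YA groups lay on either side of both C57BL/6J means. Gsta3, a glutathione transferase, had 10.73, 10.87, 10.76 and 10.88 in CX C57BL/6J, 10.83, 10.96, 10.95 and 10.82 in sham C57BL/6J, 11.27, 11.20, 11.38 and 11.01 in CX C57.YA, and 10.06, 10.05, 10.44 and 10.34 in sham C57.YA. It rose 1.99-fold with castration in C57.YA, and the interaction was -1.07 ± 0.13 (adjusted p = 1.52e-04). Mid1ip1, an X-linked activator of acetyl-CoA carboxylase in fatty acid synthesis, had 12.42, 12.38, 12.38 and 12.32 in CX C57BL/6J, 12.61, 12.31, 12.51 and 12.48 in sham C57BL/6J, 12.74, 12.90, 12.80 and 12.55 in CX C57.YA, and 11.91, 11.83, 11.65 and 11.65 in sham C57.YA. Its interaction was -1.09 ± 0.12 (adjusted p = 5.06e-05). Il33, a cytokine of the interleukin-1 family, had 8.38, 8.27, 8.22 and 8.31 in CX C57BL/6J, 8.17, 8.30, 8.31 and 8.23 in sham C57BL/6J, 8.76, 8.92, 8.91 and 8.55 in CX C57.YA, and 7.70, 8.06, 8.03 and 8.12 in sham C57.YA. The interaction was -0.77 ± 0.13 (adjusted p = 3.95e-03).
Hdac4, a histone deacetylase that restrains growth genes in cardiac muscle, had 8.43, 8.24, 8.45 and 8.60 in CX C57BL/6J, 8.54, 8.45, 8.50 and 8.55 in sham C57BL/6J, 9.27, 8.995, 9.005 and 9.10 in CX C57.YA, and 8.32, 8.13, 8.56 and 8.36 in sham C57.YA (interaction -0.83 ± 0.13, adjusted p = 1.66e-03). Here CX C57.YA stood above the rest. Pdlim3, a protein of the Z-disc, was lowest in CX C57.YA, with 10.34 to 10.73 in CX C57BL/6J, 10.45 to 10.74 in sham C57BL/6J, 10.02, 10.07, 10.13 and 10.36 in CX C57.YA, and 10.80 to 10.96 in sham C57.YA (interaction 0.69 ± 0.13, adjusted p = 6.64e-03). The other probe of Pdlim3 was called as well, at 0.82.

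Further genes of this form are given by their interaction alone. Positive ones, in which the gene fell in C57.YA, were seen for Pfkp, a phosphofructokinase (0.83), Plin5, a lipid droplet protein (0.62), Grk5, a receptor kinase (0.68), and Tnfrsf12a, the TWEAK receptor (0.94). Dimmer second probes of Plin5 (0.41) and Grk5 (0.25) were not called. Negative ones, in which the gene rose in C57.YA, were seen for the chemokine Ccl8 (-1.15), Chac1, which degrades glutathione (-1.22), Vcam1, an adhesion molecule of vessels (-0.58), Ifitm1, an interferon-induced membrane protein (-0.57), and Lonrf1 (-1.003). Ddit4, an inhibitor of mTOR signalling, was called at 1.26 (adjusted p = 0.0667) but held in 9 of the 16 fits that left out 1 array. Hspa1a, the inducible HSP70, was called at 1.04 (adjusted p = 0.0996), had 8.72, 8.45, 7.65 and 7.21 in sham C57.YA, and held in 2 of those 16 fits.

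In the C57BL/6J only form the largest interactions of the whole comparison were found, in the genes of atrial muscle. Myl7, the atrial regulatory light chain, had 9.98, 11.23, 9.26 and 9.03 in CX C57BL/6J, 6.85, 6.53, 6.41 and 6.30 in sham C57BL/6J, 7.06, 6.51, 6.66 and 6.68 in CX C57.YA, and 6.52, 6.90, 6.67 and 6.87 in sham C57.YA. It was above background on all 4 CX C57BL/6J arrays and on 1 of the other 12, which made it at least 7.53-fold higher in CX than in sham C57BL/6J, with an interaction of 3.37 ± 0.43 (adjusted p = 2.16e-04). Myl4, the atrial essential light chain, was detected on all arrays, with 11.83, 13.11, 11.43 and 11.30 in CX C57BL/6J, 8.81, 8.67, 8.93 and 8.80 in sham C57BL/6J, 9.50, 8.87, 8.66 and 8.60 in CX C57.YA, and 8.96, 8.75, 8.73 and 8.85 in sham C57.YA. It was 8.66-fold higher in CX than in sham C57BL/6J, and the interaction was 3.03 ± 0.38 (adjusted p = 2.02e-04). Sln, which encodes the calcium pump inhibitor sarcolipin, had 9.18, 10.61, 9.15 and 8.61 in CX C57BL/6J, against 6.23 to 6.63 in sham C57BL/6J, 6.44 to 7.20 in CX C57.YA and 6.22 to 6.42 in sham C57.YA. It was at least 5.36-fold higher in CX than in sham C57BL/6J (interaction 2.63 ± 0.39, adjusted p = 1.12e-03), and Mybphl, a myosin binding protein of the atrium, at least 3.18-fold (interaction 1.82 ± 0.31, adjusted p = 4.64e-03).
All 5 tested members of the atrial list were called, beside 3.07% of all genes tested. Myl7 passed the detection filter only through CX C57BL/6J, and Sln and Mybphl were not above background in sham C57BL/6J. The count is therefore partly fixed by the filter. The summed signal of the 5 was 21820–29500 in CX C57BL/6J, 21770–24950 in sham C57BL/6J, 12010–15150 in CX C57.YA and 19390–27150 in sham C57.YA. That sum is carried by the fifth member, Nppa, the atrial natriuretic peptide, which fell in both strains and is described with the same direction form. Hamp, which encodes the iron hormone hepcidin, was above background in CX C57BL/6J only, at 7.72, 8.68, 7.85 and 6.97, against 6.13 to 6.35 in sham C57BL/6J, 6.07 to 6.57 in CX C57.YA and 6.06 to 6.25 in sham C57.YA. It was at least 1.8-fold higher in CX than in sham C57BL/6J, with an interaction of 1.49 ± 0.30 (adjusted p = 0.0157). On CX C57BL/6J array 2 the signals of Myl7, Myl4, Sln, Mybphl and Hamp were all at their highest. Without that array their interactions were 2.92, 2.63, 2.22, 1.47 and 1.21.

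Other genes of the C57BL/6J only form had smaller interactions than Myl7, Myl4, Sln and Mybphl. Pdk4, the kinase that inhibits pyruvate dehydrogenase and so glucose oxidation, had 12.71, 12.42, 13.11 and 14.27 in CX C57BL/6J, 11.27, 11.64, 11.43 and 11.94 in sham C57BL/6J, 12.84, 12.14, 12.81 and 12.20 in CX C57.YA, and 12.57, 12.89, 12.64 and 12.57 in sham C57.YA. It rose 2.94-fold in C57BL/6J, and the interaction of 1.73 ± 0.39 (adjusted p = 0.0297) was 1.34 without CX C57BL/6J array 4. Atf3, a stress-induced transcription factor, had 7.48, 7.72, 7.47 and 7.64 in CX C57BL/6J, 6.78, 6.46, 6.77 and 6.99 in sham C57BL/6J, 7.14, 7.15, 7.19 and 7.12 in CX C57.YA, and 7.45, 7.70, 7.07 and 7.01 in sham C57.YA. It rose by 0.83 on the log2 scale in C57BL/6J (interaction 0.99 ± 0.18, adjusted p = 7.01e-03), although in sham C57BL/6J it was detected on 1 array. Dnajb1, a co-chaperone of HSP70, had 11.62, 11.60, 11.68 and 11.88 in CX C57BL/6J, 11.26, 11.01, 11.08 and 11.001 in sham C57BL/6J, 11.42, 11.46, 11.28 and 11.32 in CX C57.YA, and 11.82, 11.90, 11.40 and 11.34 in sham C57.YA (interaction 0.85 ± 0.16, adjusted p = 7.56e-03). In sham C57.YA both genes were higher on arrays 1 and 2 than on arrays 3 and 4, and without arrays 1 and 2 the interaction was 0.72 for Atf3 and 0.60 for Dnajb1.
Gadd45g, a growth arrest gene, had 11.76, 11.78, 11.57 and 11.59 in CX C57BL/6J, 10.84, 10.63, 10.96 and 10.99 in sham C57BL/6J, 11.58, 11.33, 11.49 and 11.45 in CX C57.YA, and 11.03, 11.49, 11.58 and 11.36 in sham C57.YA. It was low in sham C57BL/6J alone (interaction 0.71 ± 0.15, adjusted p = 0.0185). Cldn5, a tight junction protein of endothelium, had 9.76, 9.999, 10.17 and 10.35 in CX C57BL/6J, 9.28, 9.53, 9.59 and 9.53 in sham C57BL/6J, 9.96, 10.21, 10.23 and 10.23 in CX C57.YA, and 10.35, 10.49, 10.30 and 10.12 in sham C57.YA (interaction 0.74 ± 0.16, adjusted p = 0.0209). The interactions of a pair of genes that fell in C57BL/6J depended on CX C57BL/6J array 2: Tnxb, a matrix protein (-0.65), and F13a1, coagulation factor XIII of macrophages (-0.86), which were lowest there at 8.84 and 9.54 and stood at -0.46 and -0.70 without it. Of 10 macrophage markers 7 were tested, all 7 had negative interactions and F13a1 alone was called (14.3%, beside 3.07% of all genes tested). Their median interaction was -0.39, against -0.0020 over all genes. Their summed signal was 6347–9430 in CX C57BL/6J, 9151–10280 in sham C57BL/6J, 9381–12390 in CX C57.YA and 8739–10150 in sham C57.YA, and the part of this in the other results was not tested. Of 7 mesothelial and epicardial markers 3 were tested and all 3 fell in C57.YA, beside 10.5% of all genes tested. Their interactions were 1.32 for Upk1b (adjusted p = 0.121), 1.25 for Upk3b (adjusted p = 0.117) and 0.49 for Wt1 (adjusted p = 0.0615), of which Wt1 alone was called. Their summed signal was 651.7–1088 in CX C57BL/6J, 643.4–947 in sham C57BL/6J, 624.7–686 in CX C57.YA and 889.8–1094 in sham C57.YA. Its part in the results was not tested.

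In the opposite form the gene rose with castration in C57BL/6J and fell in C57.YA (14 probes), or the reverse (9 probes). Fbxo32, the muscle ubiquitin ligase atrogin-1, had 10.21, 9.98, 10.27 and 10.13 in CX C57BL/6J, 10.45, 10.71, 10.59 and 10.42 in sham C57BL/6J, 10.85, 10.87, 10.84 and 10.95 in CX C57.YA, and 10.08, 9.997, 10.03 and 10.38 in sham C57.YA. It fell by 0.39 in C57BL/6J and rose by 0.76 in C57.YA, for an interaction of -1.15 ± 0.13 (adjusted p = 5.06e-05), and all 3 probes were called. Inka2, an inhibitor of a p21-activated kinase, had 8.63, 8.61, 8.77 and 8.72 in CX C57BL/6J, 8.17, 7.86, 7.86 and 7.85 in sham C57BL/6J, 7.88, 7.87, 8.002 and 8.03 in CX C57.YA, and 8.21, 8.33, 8.12 and 8.37 in sham C57.YA. It rose by 0.74 in C57BL/6J and fell by 0.31 in C57.YA, for an interaction of 1.06 ± 0.11 (adjusted p = 5.06e-05). Its 2 other called probes were of the C57BL/6J only form. The CX and sham groups did not overlap within either strain for Fbxo32 or Inka2.
Depp1, a target of FOXO factors in fasting, had 11.04, 10.94, 10.69 and 10.44 in CX C57BL/6J, 10.61, 10.02, 9.51 and 10.12 in sham C57BL/6J, 10.98, 10.73, 10.59 and 10.77 in CX C57.YA, and 11.10, 11.08, 11.52 and 11.69 in sham C57.YA. It rose by 0.71 in C57BL/6J, where the groups overlapped, and fell by 0.58 in C57.YA, for an interaction of 1.29 ± 0.26 (adjusted p = 0.0144). Srsf7, a splicing factor, had 10.62, 10.42, 10.51 and 10.28 in CX C57BL/6J, 10.15, 9.99, 9.97 and 9.85 in sham C57BL/6J, 10.24, 10.20, 10.13 and 10.30 in CX C57.YA, and 10.56, 10.53, 10.45 and 10.39 in sham C57.YA. It rose by 0.47 in C57BL/6J and fell by 0.26 in C57.YA (interaction 0.73 ± 0.11, adjusted p = 1.66e-03). Tubb2b, a tubulin (0.77), and the small GTPase Rasl11b (0.81) moved in the same directions as Srsf7, while Pfkfb2, which makes the activator of phosphofructokinase (-0.79), and the G protein Gna11 (-0.51) fell in C57BL/6J and rose in C57.YA. At an unadjusted p under 0.05 within each strain, 93 of the 368 probes were opposite instead of 23, so the size of this form rests on the threshold.

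**Figure D3:**
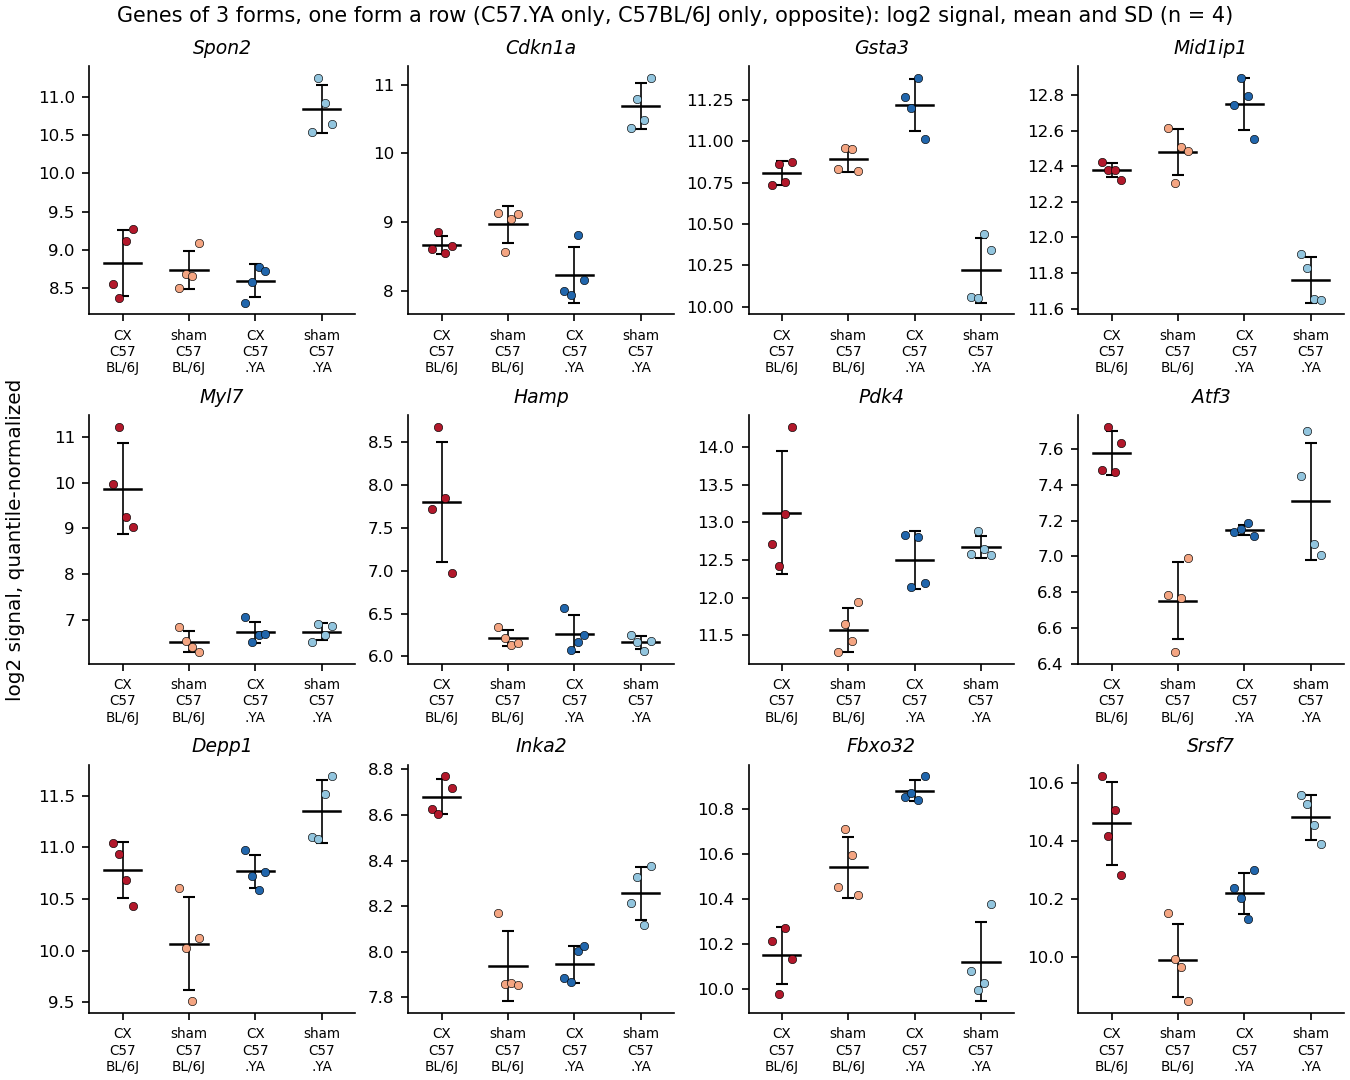
Log2 signal of 12 genes on each array (points), with the group mean and SD (n = 4): C57.YA only in the top row, C57BL/6J only in the middle row and opposite in the bottom row. In the top row sham C57.YA is farthest from the rest, in the middle row the 2 C57BL/6J groups part, and in the bottom row the step between CX and sham reverses between the strains, as for Fbxo32 at -0.39 in C57BL/6J and 0.76 in C57.YA.

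Where both strains changed in the same direction, the size differed. Dkk3, a secreted protein related to inhibitors of WNT signalling, had 9.23, 9.71, 9.28 and 9.42 in CX C57BL/6J, 7.90, 8.17, 8.33 and 8.10 in sham C57BL/6J, 8.31, 8.41, 8.42 and 8.19 in CX C57.YA, and 7.67, 8.14, 7.89 and 7.78 in sham C57.YA. It rose by 1.28 in C57BL/6J and 0.46 in C57.YA (interaction 0.82 ± 0.16, adjusted p = 0.0127). Hsd11b1, which regenerates active glucocorticoid, had 10.18, 10.11, 9.93 and 9.999 in CX C57BL/6J, 11.16, 11.13, 11.31 and 11.22 in sham C57BL/6J, 10.49, 10.32, 10.49 and 10.15 in CX C57.YA, and 10.93, 10.91, 11.19 and 10.99 in sham C57.YA. It fell by 1.15 in C57BL/6J and by 0.64 in C57.YA (interaction -0.51 ± 0.12, adjusted p = 0.0434), and all 3 of its probes were called. For both genes the larger change was in C57BL/6J.
Gadd45a, a growth arrest and DNA damage gene, had 10.75, 10.77, 10.90 and 10.71 in CX C57BL/6J, 10.31, 10.46, 10.22 and 10.15 in sham C57BL/6J, 10.85, 10.80, 10.76 and 10.80 in CX C57.YA, and 9.68, 9.83, 9.78 and 9.74 in sham C57.YA. It rose by 0.50 in C57BL/6J and 1.05 in C57.YA, for an interaction of -0.55 ± 0.10 (adjusted p = 7.44e-03). The strains differed by -0.02 in CX hearts (adjusted p = 0.869) and by 0.53 in sham hearts (adjusted p = 2.66e-04). Nppa fell by 0.33 in C57BL/6J and 0.86 in C57.YA (interaction 0.52, adjusted p = 0.0924). Lcn2, the siderophore-binding lipocalin-2, had 6.65, 6.54, 6.83 and 6.54 in CX C57BL/6J, 9.54, 9.45, 10.05 and 9.33 in sham C57BL/6J, 6.62, 6.64, 7.04 and 6.79 in CX C57.YA, and 8.48, 8.48, 9.32 and 9.16 in sham C57.YA. It was detected on 0 of the 4 CX C57BL/6J arrays and on 1 CX C57.YA array, and was at least 6.11-fold lower in CX than in sham C57BL/6J. The interactions of Lcn2 (-0.86, adjusted p = 0.095) and Nppa were called in 3 of the 16 fits that left out 1 array.

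For the lists of genes outside the clock, calls of the brightest probe of each gene are given as positive and negative of the tested members, beside the 3.07% of all genes tested. These lists were drawn up with earlier results of these data known, so that a high share is not evidence of its own. The glucocorticoid-induced list had 3 positive of 12 (Pdk4, Ddit4 and Errfi1, 25%), heat shock genes 3 positive of 15 (Hspa1a, Dnajb1 and Ahsa1, 20%) with 14 of the 15 above 0, and lipogenic genes 2 negative of 10 (Mid1ip1 and Dgat2, 20%). In Tsc22d3, a glucocorticoid-induced leucine zipper gene, the brightest probe stood at -0.07 and was not called, whereas another was called at 0.50 (adjusted p = 0.0943). The integrated stress response list was split, with Atf3 and Atf4 positive and Chac1 and Herpud1 negative of 11 (36.4%). The p53 list was split as well, with Cdkn1a and Gadd45g positive and Gadd45a and Sesn1 negative of 13 (30.8%). Genes of the acute phase and iron had 2 positive and 3 negative of 12 (Hamp and Slc40a1, and Lcn2, Slc25a37 and Il33, 41.7%), those of leukocyte adhesion and vessel junctions 1 and 2 of 10 (Cldn5, and Vcam1 and Jam2, 30%), RNA splicing 3 and 1 of 15 (Srsf7, Hnrnpc and Rbm5, and Srpk2, 26.7%), and extracellular matrix 1 and 3 of 17 (Eln, and Timp3, Tnxb and Podn, 23.5%). Of 13 interferon-stimulated genes 2 were negative (Ifitm1 and Gbp5, 15.4%). In this list 4 rose in C57BL/6J and 10 in C57.YA, beside 4.4% and 10% of all genes. The calcineurin list (10 tested), oxidative phosphorylation (15), and DNA replication and mitosis (8) held 0 calls by the brightest probe. In the last of these lists, 5 genes rose in each strain, beside 4.4% of all genes in C57BL/6J and 10% in C57.YA. A dimmer probe of Rcan1, a calcineurin regulator of the first list, was called at 1.36 (adjusted p = 0.0308), while its brightest probe stood at 0.42 (adjusted p = 0.108). Of the steroid receptor list only Hsd11b1 was called, of 7 tested. Of 4 listed Y-linked genes Ddx3y was not matched to a named probe here, although the paper counts it among the genes on the array. The 3 tested Y-linked genes were not called: Kdm5d stood at -0.15, Uty at -0.05 and Eif2s3y at -0.41 (adjusted p = 0.128). By its P value the paper reports an interaction for Eif2s3y on these arrays, while its RT-PCR gave no significant strain or surgery effect.
Median interactions were -0.61 for the core clock, -0.71 for clock output, 0.14 for heat shock genes, -0.18 for lipogenic genes and -0.0044 for oxidative phosphorylation, with -0.0020 over all genes. By chromosome, 13 of 378 tested probes on the X (3.44%) and 0 of 4 on the Y were called, and the autosomes ranged between 1.35% and 3.98%.

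**Figure D4:**
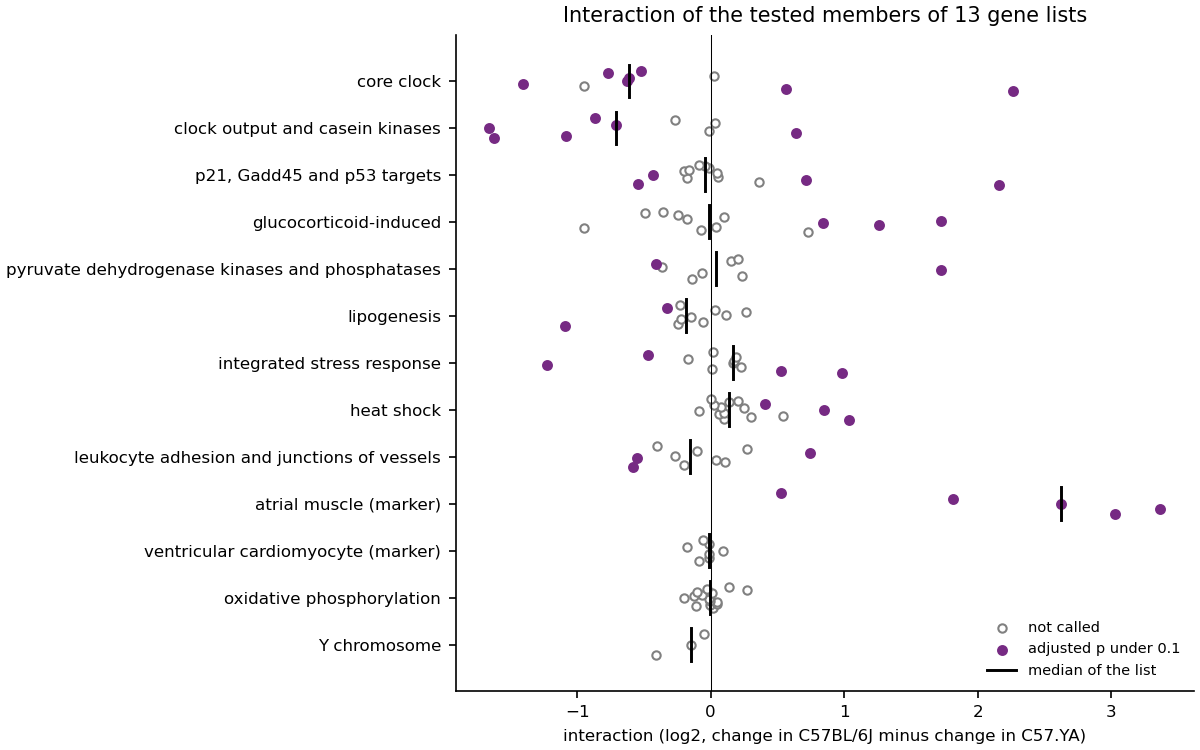
Interaction (log2, change in C57BL/6J minus change in C57.YA) of the tested genes of 13 lists, 1 point a gene, filled where the adjusted p was under 0.1, with the median of each list as a bar. Clock genes spread from -1.66 to 2.26 and the atrial markers from 0.52 to 3.37, while ventricular markers, oxidative phosphorylation and Y-linked genes lie between -0.41 and 0.28 with no filled point.

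The same 368 probes can be read between strains within each surgery. Of all tested probes the strains differed at 2992 (23.4%) in CX hearts and 548 (4.29%) in sham hearts. Of the 368, the strains differed in CX hearts only for 212, in sham hearts only for 105, in both for 37 and in neither for 14. In 34 of the 37 the strain difference had opposite signs in CX and sham hearts. The choice of probes by their interaction itself favours such opposite signs. Arntl, Dbp, Per2, Tef and Spon2 were of the sham only kind: in sham hearts Arntl was 2.24 lower and Dbp 1.82 higher in C57BL/6J than in C57.YA, while in CX hearts the differences were 0.02 (adjusted p = 0.925) and 0.19 (adjusted p = 0.301). Il33, Hdac4, Myl7 and Dkk3 were of the CX only kind. Fbxo32, Inka2, Gsta3 and Mid1ip1 differed in both with opposite signs, Fbxo32 by -0.73 in CX hearts and 0.42 in sham hearts. The group with its mean farthest from the other 3 was CX C57BL/6J for 70 probes, sham C57BL/6J for 35, CX C57.YA for 145 and sham C57.YA for 118. Over all tested probes the shares were 27%, 15.8%, 33.4% and 23.8%.

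The count of calls moved with single arrays, and most with those of sham C57.YA. Without sham C57.YA array 2 the count was 203, and without array 3 or 4 it was 575 or 654. Of the 368 probes, 195 were among those called without array 2, 352 without array 3 and 357 without array 4. Of the 368 probes, 166 were called in all 16 fits that left out 1 array, namely 107 of the C57.YA only, 28 of the C57BL/6J only, 22 of the 23 opposite, 9 of the same direction and 0 of the neither form. No called probe changed sign in any of these fits. Of the genes given above with their values on every array, all but Hspa1a, Lcn2 and those said to depend on an array held in all 16.

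**Figure D5:**
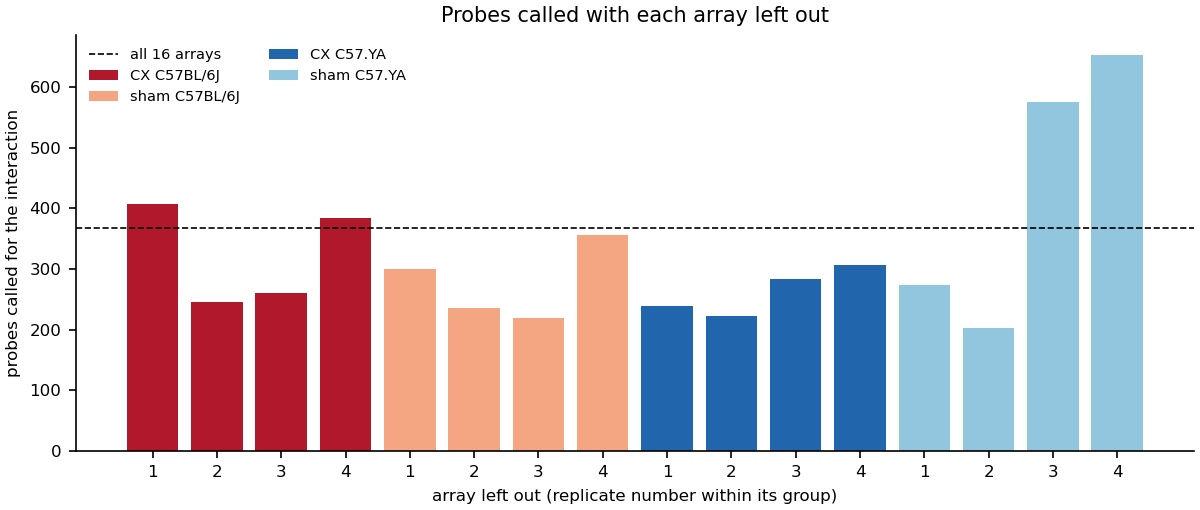
Number of probes called for the interaction (vertical axis, from 0) when each of the 16 arrays was left out, with the 368 of the full fit dashed. The bars range from 203 without sham C57.YA array 2 to 654 without sham C57.YA array 4.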

How the data were processed

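Left ventricular RNA of 16 mice (4 per group, 1 array each) was hybridised to Illumina MouseRef-8 v2.0 BeadChips. The deposited files gave, per the labels, the average intensity of each probe from BeadStudio and a detection p-value per array. The authors also deposited a log2 table, quantile-normalized with the affy package in R, whose rows were paired with probes through their values (25697 distinct partners, largest gap 0.00326 on the log2 scale), and which served as an alternative. The tables held 32 further columns of per-sample values, which were not used. No background was subtracted here, so low signals include background and fold changes of dim probes are understated.

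Intensities were log2 transformed and quantile-normalized over the 16 arrays. Probes with detection p at most 0.04 on at least 2 of the 4 arrays of any group were kept. A model with 1 mean per group was fitted in limma 3.58.1 (R 4.3.3, statmod 1.5.0; lmFit, contrasts.fit, eBayes; prior degrees of freedom 6.92), and p-values were adjusted by Benjamini-Hochberg over the 12764 tested probes, with calls at an adjusted p under 0.1. The pipeline was tested on simulated data. Probes were named through Entrez identifiers (23962 probes) and 1701 probes had no name. For a gene with several probes, the probe with the highest mean signal stands for it.

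Genes named are the 12 largest interactions in each direction, the 6 largest of each form, called members of the gene lists and genes the study discusses, some of which are not reported here. Pdlim3, Lonrf1 and others given in short are from these lists and ranks, and Myh7, Hdac4, Upk1b and Upk3b were added after their values were seen. The gene lists and the interaction itself were chosen with earlier results of these data known. Replicate numbers are those of the labels, and p-values measure the spread between mice. Alternatives covered background correction, normalization, the detection filter, the variance model, array weights, a replicate block, an atrial covariate, thresholds and each array left out.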

Additional observations from a re-analysis of the deposited data

Results flagged for a closer look

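The interaction itself is a difference between strains in the effect of castration, and it was found for 368 probes, of which 23 had changed in opposite directions in the 2 strains by the tests within each.

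Single arrays that lay far from the other 3 of their group, by a Dixon ratio above the critical value for 4 samples, were found in 15 of 360 groups over 90 named genes (4.17%, where chance flags about 5%). In CX C57BL/6J, Herpud1 had 14.91 on array 1 against 14.48 to 14.56, Srpk2 had 8.76 on array 1 against 8.92 to 8.94, Tnxb had 8.84 on array 2 against 9.57 to 9.64, and Sesn1 had 12.26 on array 4 against 12.53 to 12.59. In sham C57BL/6J, Inka2 had 8.17 on array 1 against 7.85 to 7.86, Cdkn1a had 8.56 on array 2 against 9.04 to 9.14, and Slc41a3 had 10.75 on array 4 against 10.36 to 10.43. On array 3 of that group Arhgap32 had 7.89 against 8.18 to 8.21, Ccl8 had 6.87 against 7.24 to 7.30, and Ppp1r3c had 14.02 against 13.92 to 13.94. In CX C57.YA, array 1 had 9.96 for Cldn5 against 10.21 to 10.23, 13.61 for Ppp1r3c against 13.79 to 13.82, and 7.20 for Sln against 6.44 to 6.49, and array 3 had 13.62 for Dbp against 13.87 to 13.90. In sham C57.YA, Vcam1 had 9.36 on array 3 against 9.06 to 9.09. Sham C57BL/6J array 3 and CX C57.YA array 1 held 3 of these values each.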

How the results depend on the processing

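Besides the 368 calls, counts were taken at other thresholds: 1918 tested probes had an unadjusted p under 0.05, and at an adjusted p under 0.05 there were 184 calls (89 positive, 95 negative). The sign of all retested calls was kept under every alternative run here except the atrial covariate (352 of 368). The authors' log2 table gave 368 calls, an adaptive false discovery rate 381, normexp background correction 290, no filter 272, a stricter filter 433 and the ordinary variance 247. The chip could not be entered as a block, and signals near background limit the dim genes.

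The replicate numbers were checked for pairing: over 24 pairs the correlation of same-numbered arrays ran between -0.086 and 0.204 (median 0.094, 17 above 0 and 8 above 0.1). Not every pair exceeded 0.1 and the labels name no source shared by a number, so the main fit has no block. The replicate block gave 426 calls, 337 of them among the 368. In 11 of 24 cases an array correlated best with its own number, a hint from the data and not the design. With the block, the interactions of Atf4, Cxcl1, Hspa1a, Sesn1, Strip2 and Vsig4 had an adjusted p of 0.111 to 0.117, and the other 94 named results stayed on their side of the threshold.

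In the values that follow, the forms are given as C57.YA only, C57BL/6J only, opposite, same direction and neither, against 243, 76, 23, 18 and 8. With each array left out in turn, calls ranged over 203–654 (positive 101–328, negative 102–326), and the forms over 124–422, 38–122, 9–34, 9–28 and 2–48. The count moved by over 1.5 times without sham C57.YA array 2 (203), 3 (575) or 4 (654), sham C57BL/6J array 2 (236) or 3 (220), or CX C57.YA array 1 (239) or 2 (222). Median scaling gave 152 calls (63 positive, 89 negative; 41.4% positive against 48.1%), with forms 108, 32, 4, 5 and 3. Array weights gave 579 (302 positive), with 379 C57.YA only, 40 opposite and 33 neither. The ordinary variance gave 114 negative, 161 C57.YA only, 48 C57BL/6J only and 1 neither. Normexp correction gave 10 same direction and 4 neither, no filter 48 C57BL/6J only, 12 opposite, 11 same direction and 14 neither, and the stricter filter 13 neither. At an adjusted p under 0.05 there were 121 C57.YA only, 30 C57BL/6J only, 10 same direction and 0 neither. With unadjusted p under 0.05 within a strain 93 were opposite and 0 neither. From sizes alone the forms were 120, 24, 196, 28 and 0.

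The atrial covariate gave 53 calls (36 positive, 17 negative, 67.9% positive), with forms 30, 14, 2, 4 and 3. It turned the sign of F13a1 (0.24), Hamp (-0.56), Tnxb (0.48) and Vsig4 (0.15). It also turned the sign of Mybphl (-0.39) and Sln (-0.18), but both are part of the covariate, so these 2 values are not a separate result. Leaving out 2 arrays was chosen after seeing the data. Without sham C57.YA arrays 1 and 2 there were 142 calls (78 positive, 64 negative), with forms 91, 28, 15, 7 and 1, and without arrays 3 and 4 there were 1700 (842 positive, 858 negative), with forms 1121, 237, 134, 57 and 151. The causes were not tested.

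Counts of where the strains differed (CX hearts only 212, sham hearts only 105, both 37, neither 14) were also recomputed after seeing the data. With arrays left out in turn they ranged over 92–448, 70–118, 20–39 and 1–58. CX only was 85 with median scaling, 137 with the ordinary variance, 371 with array weights, 0 with the atrial covariate, 39 without sham C57.YA arrays 1 and 2, and 1339 without arrays 3 and 4. Sham only was 46 with median scaling, 32 with the atrial covariate, and 67 without arrays 1 and 2. Both was 23 with normexp correction, 18 with median scaling, 20 with no filter and 0 with the atrial covariate. Neither was 3 with median scaling, 8 with the ordinary variance, 37 with array weights, 7 with the replicate block, 0 without arrays 1 and 2, and 219 without arrays 3 and 4.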
